A study of Homo sapiens with 8 samples.

Results

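The 9 genes described here encode RNA-binding proteins that regulate mRNA decay and translation from the 3′ end of the transcript, most of them through AU-rich elements: ZFP36, ZFP36L1, ZFP36L2, ELAVL1, HNRNPD, KHSRP, TIA1, TIAL1 and PUM2. They were chosen by name and not by a cut on their values, but with earlier results of these data known. Every array probe whose RefSeq transcript belongs to one of these genes was taken, which gave 18 probes among the 41000 on the array. All 18 were well above background in all 8 measured channels and passed the filters that kept 22471 probes in all.

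L1236 is a Hodgkin lymphoma cell line with a high level of miR-155. The cells carried either the empty retroviral pMSCV-PIG vector (EV) or a miR-155 sponge, a transcript with repeated miR-155 binding sites that competes for the microRNA, and the labels describe sorting of GFP-positive cells. From each population, total RNA (T) and RNA precipitated with an antibody against Argonaute 2 (Ago2-IP, here IP) were hybridised to Agilent 2-colour 44k arrays. Ago2 is the core protein of the RNA-induced silencing complex, which holds a microRNA and the transcripts it pairs with. Dividing the IP by the T signal within one population gave the IP/T ratio, and 2-fold or more was called enriched. An IgG precipitate was not analysed here. Whether the T and IP signal of a transcript changes through its amount per cell or through the share of cells that make it cannot be told apart.

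Each of the 4 groups (EV T, EV IP, sponge T and sponge IP) held 1 RNA sample, labelled once with Cy3 and once with Cy5. In what follows "with EV" and "with the sponge" name the population a value comes from. The 2 labellings measure the same RNA, so no difference between groups was tested. For IP/T the SD is over the 2 dye orientations (IP in Cy5 with T in Cy3, and the reverse), and for a difference between sponge and EV cells it is over the 2 dyes. Such an SD covers labelling and hybridisation and says nothing of the spread among cultures or precipitations. Between 54.1% and 65.7% of spots were well above background in a channel, lowest in sponge T labelled with Cy5, and no spot was saturated. All 10 Hodgkin Reed-Sternberg cell markers looked up, among them TNFRSF8 (CD30) and CCL17, were detected in all 4 channels of total RNA, as were 5 of 8 B cell, 3 of 6 T cell, 3 of 6 monocyte and 2 of 4 erythroid markers. The B cell gene MS4A1 (CD20), the T cell genes CD3D and CD3G and the monocyte genes LYZ and CD68 were detected in no channel of total RNA.

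AU-rich elements are short runs of adenosine and uridine in the 3′ UTR of many cytokine, growth control and immediate early transcripts. ZFP36 (tristetraprolin) and its relatives ZFP36L1 and ZFP36L2 bind them through paired zinc fingers and recruit the deadenylase machinery, so that the transcript decays. KHSRP and HNRNPD (AUF1) also bind AU-rich elements and are mostly linked to decay, whereas ELAVL1 (HuR) mostly stabilises the same transcripts. TIA1 and TIAL1 (TIAR) repress translation and gather in stress granules, and PUM2 binds its own short UGUA-containing motif and recruits deadenylases. MicroRNAs act on the same 3′ UTRs, and some of these genes are known to be under microRNA control themselves.

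The microRNA that the sponge was made to bind is shown because its seed is the letters by which miR-155 recognises a target. The sequence is from RefSeq (GRCh38.p14, chr21:25573983-25574006, plus strand), 5′ to 3′, with the seed (bases 2 to 8) in capitals.

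hsa-miR-155-5p: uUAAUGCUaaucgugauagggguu

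The mature microRNA was not measured on these arrays, and matches to this seed in the transcripts of the 9 genes were not analysed here.

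Over the 18 probes, 4 (22.2%) were enriched 2-fold or more in the IP fraction of EV-L1236 cells, where 17.5% of all kept probes were, and 4 with the sponge, where 17.5% of all kept probes were. The 4 were not the same in both: the probe of ZFP36, the brighter probe of ZFP36L1 and the PUM2 probe A_24_P71439 were enriched in both populations, the probe of ZFP36L2 with EV and the PUM2 probe A_24_P2995 with the sponge. No probe of the 9 genes was at an IP/T of 0.5 or less with EV or with the sponge, where 19.0% and 17.8% of all kept probes were. The median log2 IP/T of the 18 probes was 0.37 ± 0.01 with EV and 0.48 ± 0.01 with the sponge, against −0.16 and −0.13 over all kept probes. Here the SD is between the medians of the 2 dye orientations. For a single probe the median dye SD was larger, 0.12 with EV and 0.19 with the sponge. At 1 probe per gene the medians were 0.51 ± 0.25 with EV and 0.49 ± 0.16 with the sponge, not apart beyond this spread. With each gene taken at its brightest kept probe, the 3 genes of the zinc finger family were all enriched 2-fold or more with EV, with log2 IP/T from 1.06 to 4.71, and none of the 6 other genes was, with values from −0.22 to 0.80. At the level of genes this made 3 of 9 (33.3%) with EV and 2 of 9 (22.2%) with the sponge, beside 18.1% and 17.8% of the 11204 genes with a kept probe. The split between the families depended on the probe. With EV, PUM2 A_24_P71439 was at 1.79 and the dimmer ZFP36L1 probe at −0.61.

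In EV cells both IP channels lay above both T channels for 11 of the 18 probes (61.1%), against 38.2% of all kept probes, below them for 4 (22.2%) against 48.9%, and overlapped them for the other 3. In sponge cells the counts were 11 above (61.1%), against 37.7% of all kept probes, 3 below (16.7%) against 46.1%, and 4 overlapping. The 4 probes with lower IP than T signal with EV belonged to ZFP36L1, ELAVL1 and HNRNPD, each of which also had a probe that did not lie below.

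**Figure D1:**
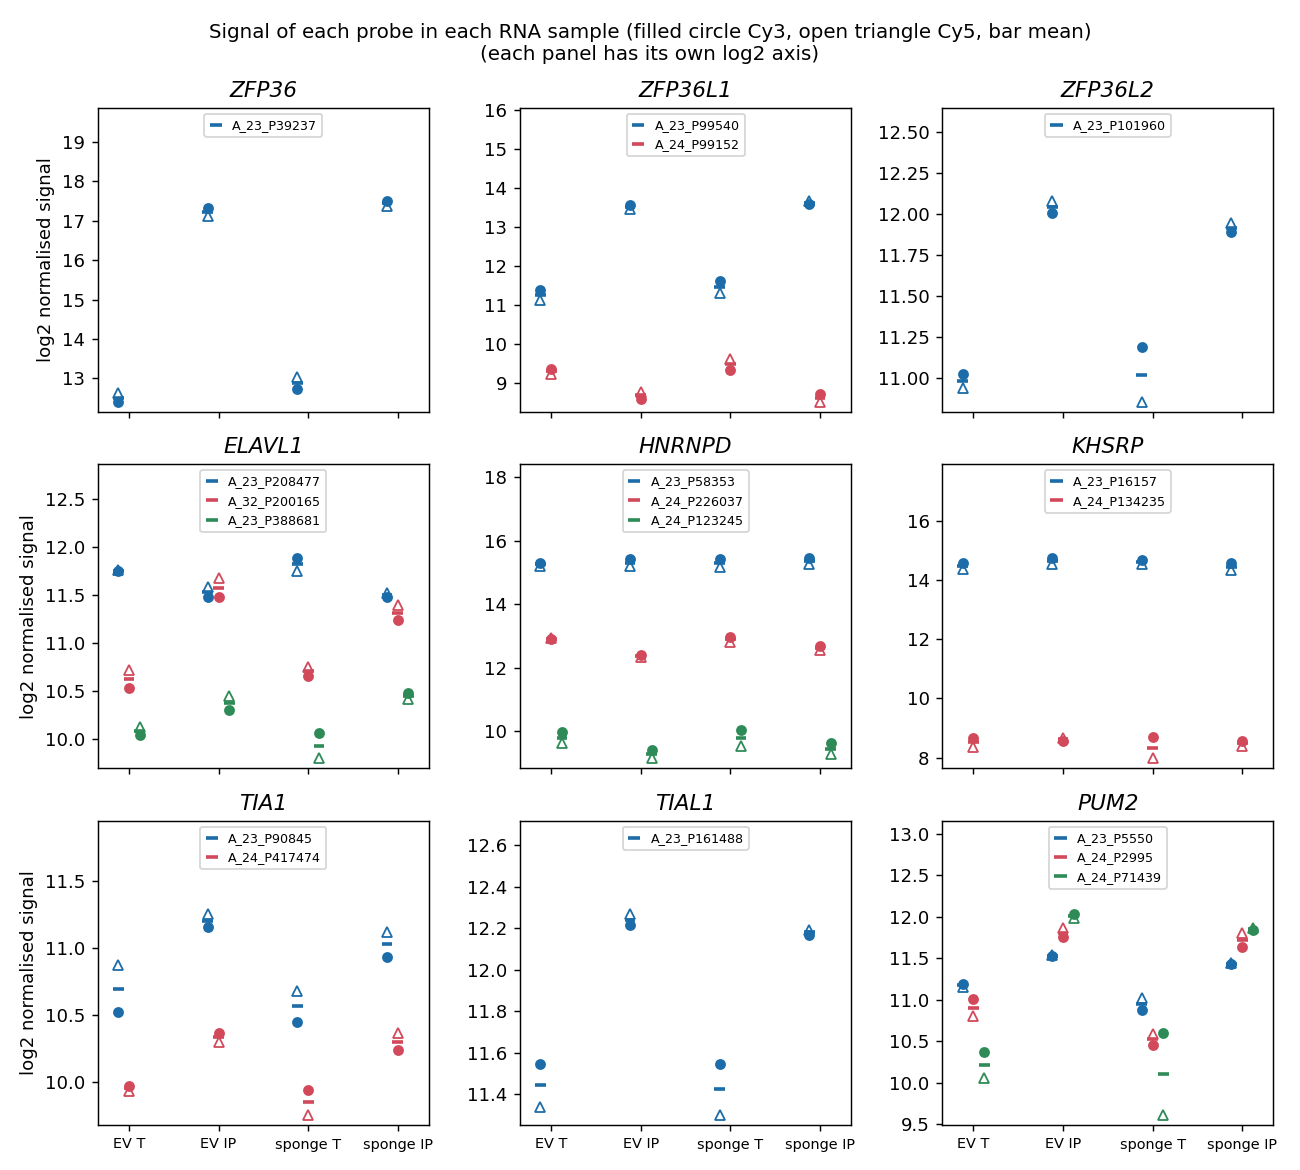
Log2 quantile-normalised signal (y axis) of the 18 probes in the 4 RNA samples (x axis), 1 panel per gene, with Cy3 as filled circles, Cy5 as open triangles and their mean as a bar. ZFP36 lay near 12.4 to 13.0 in T and 17.1 to 17.5 in IP, while the reference probes of HNRNPD and KHSRP stayed near the same level in all 4 samples.

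**Figure D2:**
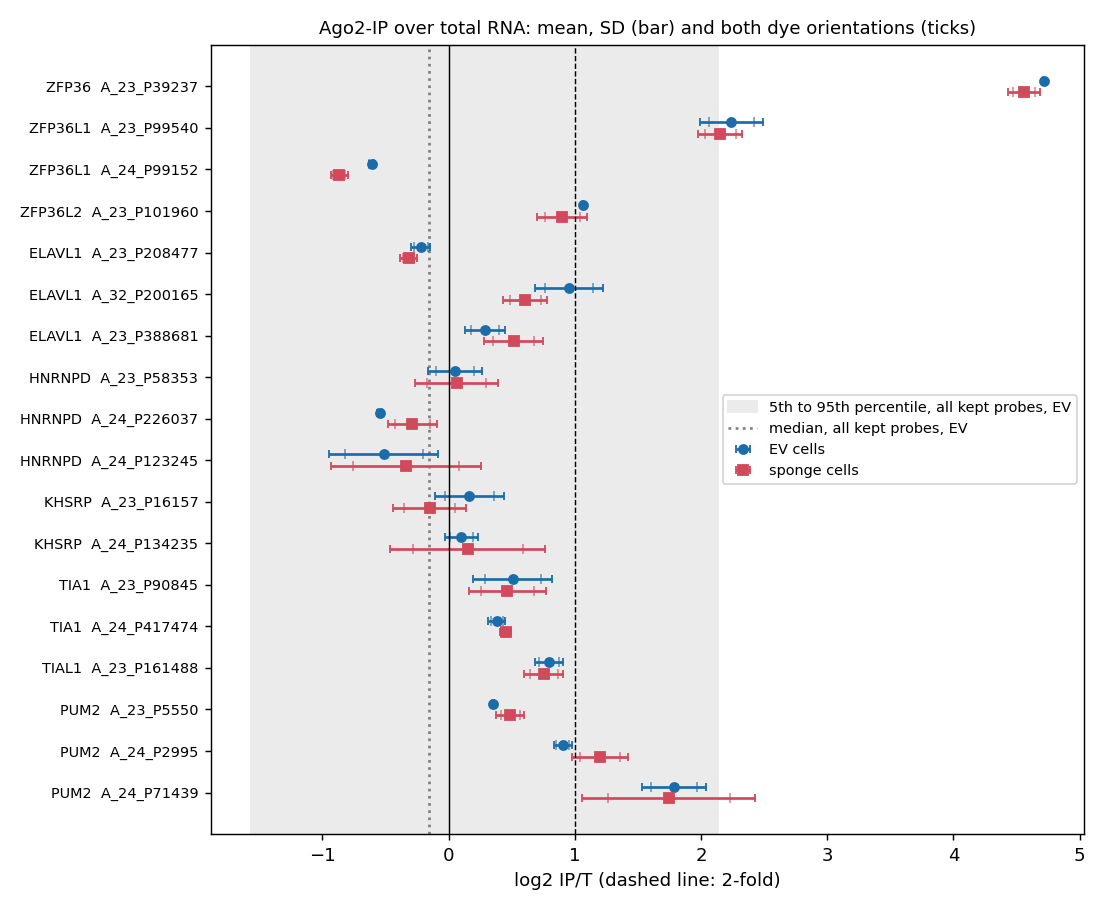
Log2 IP/T (x axis) of each probe with EV (circles) and sponge cells (squares), with the SD over the 2 dye orientations as a bar and the orientations as ticks. The grey band spans the 5th to the 95th percentile of all kept probes with EV (−1.57 to 2.13), and ZFP36 and the brighter probe of ZFP36L1 had means above it.

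ZFP36 encodes tristetraprolin, a decay factor whose own transcript carries an AU-rich element. Its probe gave log2 signals of 12.40 (Cy3) and 12.61 (Cy5) in EV T and of 17.32 and 17.12 in EV IP. In sponge cells the values were 12.74 and 13.02 in T and 17.49 and 17.39 in IP. Every IP channel was thus more than 4 log2 units above every T channel. The log2 IP/T was 4.71 ± 0.01 with EV, a 26.3-fold enrichment, and 4.56 ± 0.13 with the sponge, a 23.6-fold enrichment. Among the 22471 kept probes only 25, ZFP36 included, reached this ratio with EV, and 23 reached that of ZFP36 with the sponge. The log2 IP/T of ZFP36 with EV ranged from 4.51 to 4.92 over the 8 alternative normalisations and dye choices.

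ZFP36L1 was read by a pair of probes on the same RefSeq transcript, and they went in opposite directions. The brighter probe, A_23_P99540, gave 11.40 and 11.15 in EV T, 13.56 and 13.47 in EV IP, 11.64 and 11.32 in sponge T, and 13.59 and 13.67 in sponge IP (log2 signal, Cy3 then Cy5). Its log2 IP/T was 2.24 ± 0.25 with EV (4.73-fold) and 2.15 ± 0.17 with the sponge (4.44-fold). The dimmer probe, A_24_P99152, gave 9.38 and 9.23 in EV T, 8.60 and 8.79 in EV IP, 9.35 and 9.63 in sponge T, and 8.72 and 8.53 in sponge IP. For this probe the IP signal lay below the T signal in both populations, with a log2 IP/T of −0.61 ± 0.02 and −0.86 ± 0.07. The probes differed by 2.85 log2 units with EV and 3.02 with the sponge, well beyond the dye spread of either. Both signs held under all 8 alternatives, but the negative ratio of the dimmer probe was close to 0 with normexp, loess and Aquantile, at −0.14 with EV and −0.24 with the sponge. Where the probes lie along the transcript was not analysed here.

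ZFP36L2 had 1 probe, with 11.02 and 10.94 in EV T, 12.005 and 12.077 in EV IP, 11.18 and 10.85 in sponge T, and 11.89 and 11.94 in sponge IP. The IP channels lay above the T channels in both populations. The log2 IP/T was 1.06 ± 0.01 with EV (2.09-fold) and 0.90 ± 0.20 with the sponge (1.87-fold), so the gene sat at the 2-fold limit. With normexp background correction its log2 IP/T with EV was below the limit, at 0.88 with quantile normalisation and 0.99 with loess and Aquantile.

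KHSRP encodes KSRP, a decay factor that also helps the processing of some microRNA precursors. Its brighter probe, A_23_P16157, gave 14.57 and 14.39 in EV T, 14.75 and 14.54 in EV IP, 14.68 and 14.53 in sponge T, and 14.58 and 14.33 in sponge IP. IP and T overlapped in both populations. The log2 IP/T was 0.17 ± 0.27 with EV and −0.15 ± 0.29 with the sponge, and the values differed in sign between the dye orientations of each population. The dim probe, A_24_P134235, had a log2 IP/T of 0.10 ± 0.13 and 0.15 ± 0.62.

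HNRNPD encodes the AUF1 isoforms. Its brightest probe, A_23_P58353, lay between 15.17 and 15.47 in all 8 channels, with a log2 IP/T of 0.05 ± 0.21 with EV and 0.07 ± 0.33 with the sponge. The other probes, A_24_P226037 and A_24_P123245, had IP below T with EV, with a log2 IP/T of −0.54 ± 0.02 (1.45-fold lower in IP) and −0.51 ± 0.43 (1.43-fold lower). In sponge cells they were at −0.29 ± 0.19 and −0.33 ± 0.60, and for A_24_P123245 IP and T overlapped there. Probe A_24_P226037 was annotated to another HNRNPD transcript than the other two.

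ELAVL1 encodes HuR, which binds AU-rich elements and mostly protects the transcript. Its 3 probes, all on the same RefSeq transcript, did not agree in direction. The brightest, A_23_P208477, gave 11.74 and 11.76 in EV T and 11.48 and 11.58 in EV IP, and its log2 IP/T of −0.22 ± 0.08 with EV and −0.32 ± 0.06 with the sponge was the lowest among the 9 genes at their brightest probes. Probe A_32_P200165 gave 10.53 and 10.72 in EV T, 11.48 and 11.67 in EV IP, 10.66 and 10.75 in sponge T, and 11.24 and 11.39 in sponge IP. Its IP channels lay above its T channels in both populations, with a log2 IP/T of 0.95 ± 0.27 with EV and 0.61 ± 0.17 with the sponge. Probe A_23_P388681 was at 0.29 ± 0.16 and 0.52 ± 0.23. The span between the lowest and the highest probe with EV was 1.17 log2 units, or 2.25-fold.

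TIA1 and TIAL1, the translational repressors, were mildly higher in the IP fraction by every probe. The TIA1 probe A_23_P90845 had a log2 IP/T of 0.51 ± 0.31 with EV (1.42-fold) and 0.47 ± 0.30 with the sponge, and A_24_P417474 was at 0.38 ± 0.07 (1.30-fold) and 0.45 ± 0.04. TIAL1 gave 11.55 and 11.34 in EV T, 12.22 and 12.27 in EV IP, 11.55 and 11.30 in sponge T, and 12.17 and 12.19 in sponge IP. IP and T did not overlap for TIAL1 in either population. Its log2 IP/T was 0.80 ± 0.11 with EV (1.74-fold) and 0.76 ± 0.16 with the sponge (1.69-fold), below the 2-fold limit.

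PUM2 was higher in IP than in T by all 3 probes in both populations, but by different amounts. The brightest over the 8 channels, A_23_P5550, gave 11.19 and 11.16 in EV T, 11.52 and 11.53 in EV IP, 10.87 and 11.02 in sponge T, and 11.43 and 11.44 in sponge IP. Its log2 IP/T was 0.35 ± 0.01 with EV (1.28-fold) and 0.49 ± 0.11 with the sponge (1.40-fold). Probe A_24_P2995 was at 0.90 ± 0.07 (1.87-fold) and 1.20 ± 0.22 (2.30-fold), and A_24_P71439 at 1.79 ± 0.26 (3.45-fold) and 1.75 ± 0.68 (3.35-fold). The lowest and the highest probe, again on a single RefSeq transcript, were 1.43 log2 units apart with EV. A_24_P71439 had a Cy3 to Cy5 difference of 1.98-fold in sponge T, just inside the 2-fold limit for keeping a probe.

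The order of IP/T at the brightest probes with EV was ZFP36, ZFP36L1, ZFP36L2, TIAL1, TIA1, PUM2, KHSRP, HNRNPD and ELAVL1. The dye orientations of neighbours in this order did not overlap from ZFP36 down to TIAL1, nor between HNRNPD and ELAVL1. They overlapped at every step from TIAL1 to HNRNPD, so neighbours there were not told apart beyond their dye spread. Genes further apart in the order could still be separate. The orientations of TIAL1 (0.72 and 0.88) lay above those of PUM2 (0.34 and 0.36) and HNRNPD (−0.10 and 0.20). Only the steps within the zinc finger family were larger than 1 log2 unit. The order holds for 1 probe per gene. Probes of the same gene lay up to 2.85 (ZFP36L1), 1.43 (PUM2) and 1.17 (ELAVL1) log2 units apart, and the other HNRNPD probes, at −0.54 and −0.51, lay below the brightest ELAVL1 probe, which turns that step around.

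The comparison of sponge with EV cells asks whether tying up miR-155 alters the level of these transcripts or their presence in the Ago2 complex. The study proposes that in its Hodgkin lymphoma lines, L1236 among them, the sponge left part of the abundant miR-155 free. How far miR-155 was blocked was not measured here, so an effective block cannot be assumed. The EV and the sponge RNAs were hybridised on separate arrays, so a difference between the populations cannot be told apart from one between arrays. No probe of the 9 genes differed 2-fold or more between sponge and EV cells in T or in IP. Such differences were rare on the array, at 0.409% of kept probes in T and 0.151% in IP. The median log2 difference (sponge minus EV) of the 18 probes was −0.0030 ± 0.12 in T and −0.067 ± 0.028 in IP, against −0.015 and 0.0062 over all kept probes.

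In T, both sponge channels lay above both EV channels for 1 of the 18 probes (5.56%), against 15.0% of all kept probes, and below them for 2 (11.1%), against 18.7%. The 1 above was ZFP36 and the 2 below were the PUM2 probes A_23_P5550 and A_24_P2995. In IP, the sponge channels lay above the EV channels for 3 probes (16.7%), against 25.9% of all kept probes, and below them for 6 (33.3%), against 24.2%. The 3 above were ZFP36, ZFP36L1 (A_23_P99540) and HNRNPD (A_24_P226037). The 6 below were ZFP36L2, ELAVL1 (A_32_P200165), TIA1 (A_23_P90845), TIAL1 and the PUM2 probes A_23_P5550 and A_24_P71439.

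The largest difference in T upward was that of ZFP36, at 0.37 ± 0.05 on the log2 scale (1.30-fold higher with the sponge), from 0.34 with Cy3 and 0.41 with Cy5. In IP the same probe was 0.22 ± 0.07 higher (1.16-fold). The log2 IP/T of ZFP36 was therefore lower with the sponge by an amount close to its dye spread (−0.16 ± 0.12). The T difference stayed between 0.29 and 0.41 over the 8 alternatives, and the 95th percentile of all kept probes was 0.37. ZFP36L1 was also higher with the sponge by its brighter probe, by 0.21 ± 0.04 in T and 0.12 ± 0.12 in IP, while its dimmer probe gave 0.18 ± 0.31 and −0.07 ± 0.26. ZFP36L2 was at 0.04 ± 0.17 in T and −0.12 ± 0.01 in IP.

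The largest difference in T downward was that of the PUM2 probe A_24_P2995, at −0.38 ± 0.25 (1.30-fold lower with the sponge), with 11.01 and 10.80 in EV T and 10.45 and 10.59 in sponge T. PUM2 probe A_23_P5550 was lower by a smaller amount, −0.23 ± 0.13, and A_24_P71439 gave −0.11 ± 0.48, with opposite signs in the dyes. In IP the 3 PUM2 probes were at −0.091 ± 0.0024, −0.087 ± 0.043 and −0.153 ± 0.046, lower with both dyes. For A_23_P5550 and A_24_P2995 both signs held under all 8 alternatives.

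HNRNPD was higher in the IP of sponge cells with both dyes by all 3 probes, at 0.05 ± 0.02, 0.25 ± 0.04 and 0.18 ± 0.05 in the order given above, while its T differences were 0.04 ± 0.13, −0.01 ± 0.13 and 0.00 ± 0.12. The KHSRP probe A_23_P16157 and the ELAVL1 probe A_32_P200165 went the other way, with lower IP and slightly higher T with the sponge. Their IP differences were −0.19 ± 0.03 and −0.26 ± 0.02, and their T differences 0.12 ± 0.02 and 0.08 ± 0.07. The brightest ELAVL1 probe was at 0.07 ± 0.10 in T and −0.03 ± 0.04 in IP. TIA1 (A_23_P90845) was at −0.13 ± 0.08 in T and −0.18 ± 0.07 in IP, and TIAL1 at −0.02 ± 0.03 and −0.06 ± 0.02. The differences of these 5 genes all lay between the 5th and the 95th percentile of kept probes (−0.38 to 0.37 in T and −0.33 to 0.34 in IP).

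**Figure D3:**
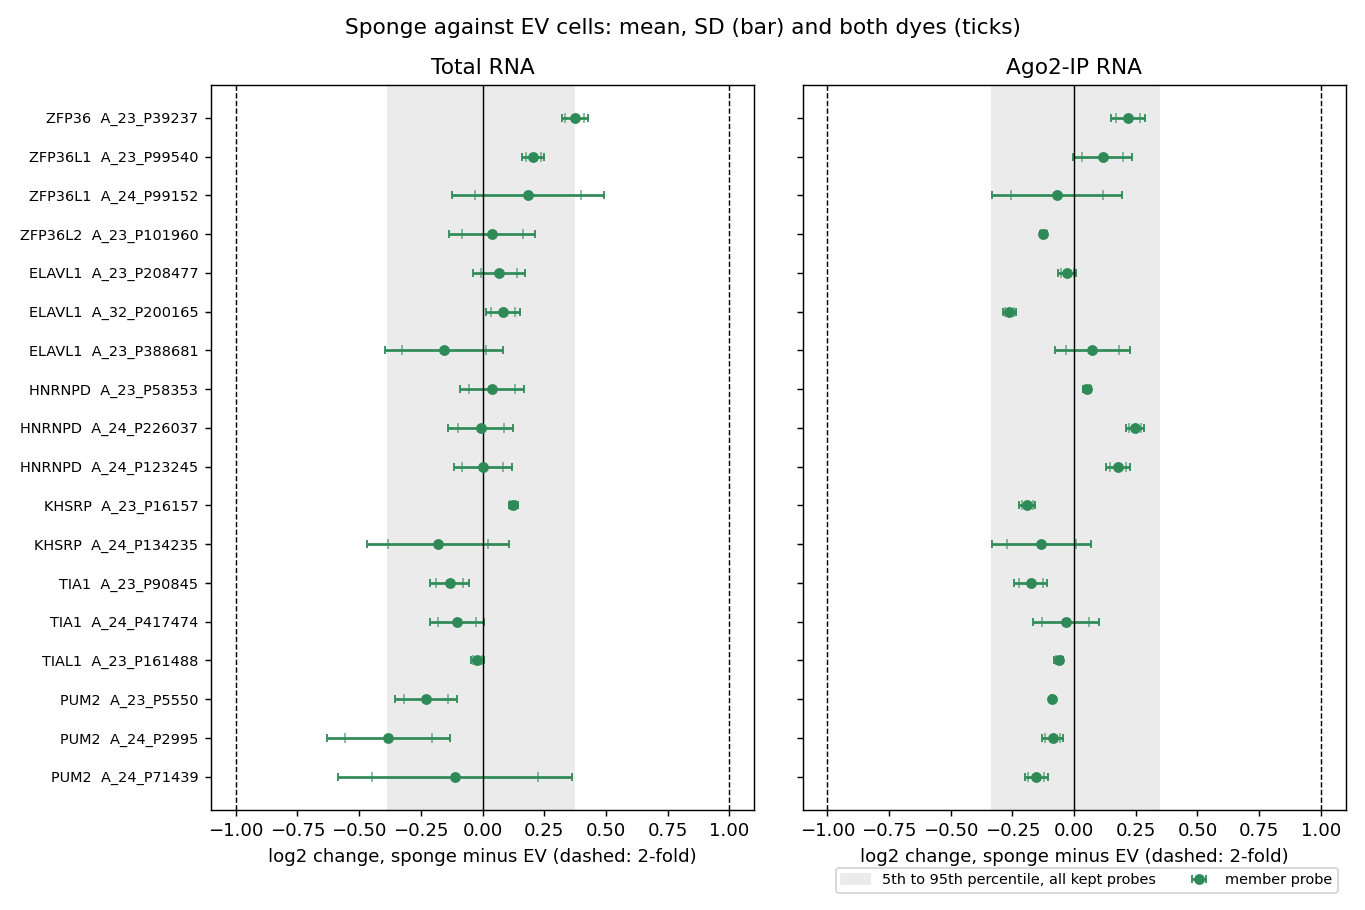
Log2 difference between sponge and EV cells (x axis) of each probe in total RNA (left) and in Ago2-IP RNA (right), with the SD over the 2 dyes as a bar and the dyes as ticks. ZFP36 stood at 0.37 in T and 0.22 in IP, PUM2 A_24_P2995 at −0.38 in T, and no probe reached the dashed 2-fold lines.

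Of 36 other genes for AU-rich or 3′ UTR binding proteins, 35 had a probe and 32 a kept probe. Of these, 11 (34.4%) were enriched 2-fold or more in the IP fraction of EV-L1236 cells and 12 (37.5%) with the sponge, against the 18.1% and 17.8% of all genes given above, and 2 were at 0.5 or less with EV, where 18.8% of all genes were. The median log2 IP/T was 0.77 ± 0.11 with EV and 0.78 ± 0.27 with the sponge, against −0.16 and −0.13 over all genes. The highest were IGF2BP3, an oncofetal mRNA-binding protein, at 3.12 ± 0.46 (8.72-fold), and MEX3C, a KH-domain ubiquitin ligase, at 2.56 ± 0.01 (5.88-fold). The lowest were HNRNPAB, a relative of HNRNPD, at −1.23 ± 0.16, and CIRBP, a cold-inducible RNA-binding protein, at −1.26 ± 0.23.

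Kinases, phosphatases and partners that act on these proteins made up the next list. Of 35 such genes 32 had a kept probe. Of these, 4 (12.5%) were at 2 or more with EV, against 18.1% of all genes, and 3 (9.38%) with the sponge, against 17.8%. At 0.5 or less with EV were 9 (28.1%), against 18.8% of all genes. The median log2 IP/T was −0.01 ± 0.03 with EV, against −0.16 over all genes. The highest were PPP2CB, a catalytic subunit of protein phosphatase 2A, at 2.54 ± 0.33, and DUSP1, the phosphatase that turns off p38 and also 1 of the AU-rich transcripts below, at 2.53 ± 0.11. The lowest were MAPK13, a p38 kinase, at −1.38 ± 0.31 and EXOSC5, a subunit of the RNA exosome, at −1.47 ± 0.21.

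Transcripts commonly named as carrying AU-rich elements, the class these proteins bind, were more often enriched. Like the other lists, this one was chosen with earlier results of these data known. Of 50 genes, 48 had a probe and 36 a kept probe. Of the 36, 26 (72.2%) were at 2 or more with EV, against 18.1% of all genes. None was at 0.5 or less with EV, where 18.8% of all genes were. With the sponge 25 (69.4%) were at 2 or more, against 17.8% of all genes. Only 1, FOSB, was at 0.5 or less with the sponge, where 1954 of all 11204 genes were. For 24 of the 26, T was detected with both dyes in the EV sample. Of the other 2, CCL4 was detected there with 1 dye and CD69 with none, so that the ratio of CD69 is only a bound. T of IL10 and PLAUR, which were below 2-fold with EV, was also detected there with no dye, and both stay among the 36. A probe detected in IP alone could pass the detection filter. For this reason, and because of how the list was chosen, the share over the genes that passed is only a description. The median log2 IP/T was 1.63 ± 0.03 with EV and 1.48 ± 0.07 with the sponge. The highest detected throughout were IER3, an immediate early survival gene, at 3.48 ± 0.18 (11.2-fold) and BIRC3 (cIAP2), an NF-kB target, at 3.32 ± 0.01 (9.96-fold). The lowest were LTA (lymphotoxin alpha) at −0.76 ± 0.19 and FOSB, an AP-1 subunit, at −0.93 ± 0.49. No gene of the 3 lists differed 2-fold or more between sponge and EV cells with the same sign in both dyes, in T or in IP.

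**Figure D4:**
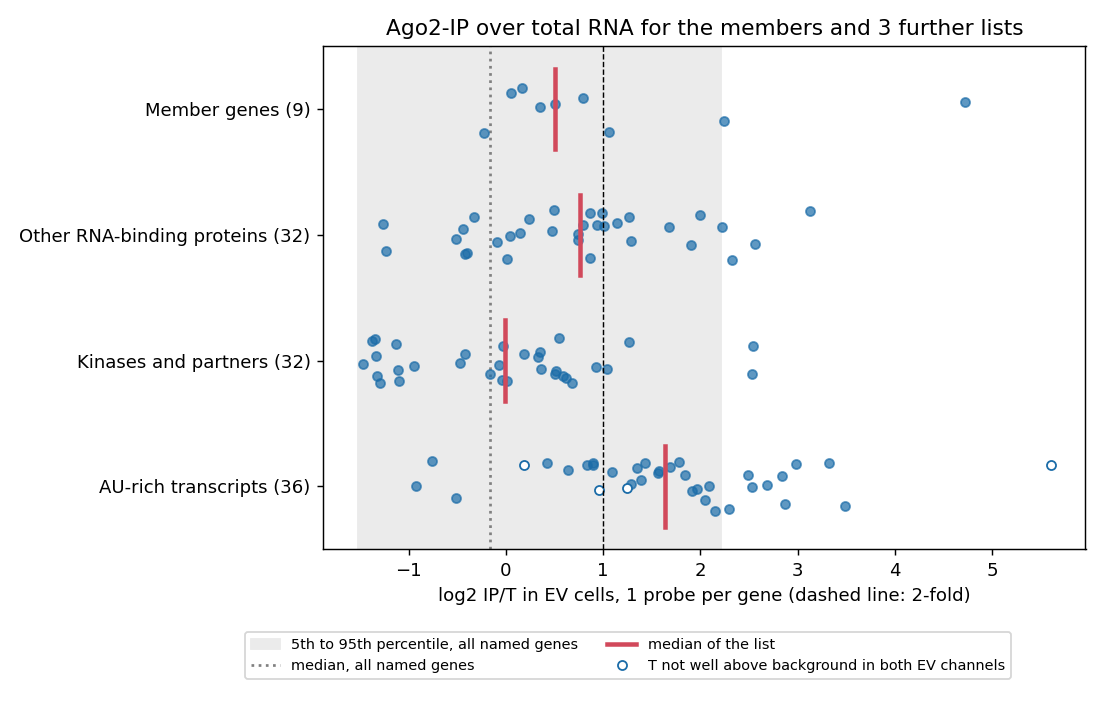
Log2 IP/T with EV (x axis) of the 9 genes and of the 3 further gene lists (rows), each gene at its brightest kept probe, with the median of a list as a red bar and the median and the 5th to 95th percentile of all 11204 genes as a dotted line and a grey band. The median of the AU-rich transcripts was 1.63 ± 0.03 and that of the 9 genes 0.51 ± 0.25 (SD between the dye orientations). Open points are genes whose T signal was not detected with both dyes in the EV sample.

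Over the 8 channels, the genes whose signal followed ZFP36 most closely were RAB13 (Pearson r = 0.9997), a small GTPase, TNFRSF12A (0.9992), a TNF receptor family member, and CDKN1B (0.9990), the cell cycle inhibitor p27, among 10294 genes detected throughout. Their log2 IP/T with EV was 3.13, 3.40 and 2.74. Such likeness was common, since 2016 genes had an r of 0.95 or more with ZFP36, and the 8 channels are 4 RNA samples dominated by the step from T to IP. For the brightest ELAVL1 probe, the lowest in IP/T among the brightest probes of the 9 genes but not among all 18 probes, the closest were MIEF2 (0.9882), the histone gene H3C7 (0.9870) and ZNF143 (0.9830), with 223 genes at 0.95 or more.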

How the data were processed

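Per the file headers, intensity values of the spots came from Agilent Feature Extraction 10.7.3.1 (10.5.1.1 in the submitters' processing notes), which subtracts background and corrects for dye. The 8 deposited files are 4 distinct arrays, each holding IP and T of one cell population, and a sample was read from the channel of its dye. All arrays lay on the same slide and scan. EV and sponge cells were on separate arrays, so their differences cannot be told apart from differences between arrays, whereas IP and T shared an array. A further deposited table gives log2 values normalised by the authors for 22282 probes, of which 22269 were kept here, and for the 18 probes the channel values computed here were within 0.0093 of it.

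Control spots and outlier spots were left out, log2 processed signals were averaged per probe and quantile normalised over the 8 channels (limma 3.58.1, R 4.3.3), following the study's quantile normalisation and filters. A probe was kept if well above background in at least 4 of 8 channels and if Cy3 and Cy5 differed by at most 2-fold in each RNA, and the dyes were then averaged. Summaries were made with Python 3.11.15, pandas 2.3.3 and numpy 2.4.6 and tested on simulated data. Probes were named through the RefSeq gene table (GRCh38.p14). The gene's reference probe is its kept probe of highest mean signal. Apart from this ranking of a gene's probes by brightness, levels of different probes were not compared.

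The 9 genes, the 3 further lists and the markers were chosen with earlier results of these data known. All 18 probes are named. From each list the 2 genes with the highest and the 2 with the lowest IP/T in EV cells were named, among probes detected in all 4 EV channels, together with the 3 genes most like the highest and the lowest member. CD69, CCL4, IL10 and PLAUR were named after their values were seen. Alternatives were normexp background correction (offset 50, on the median spot signal, the only raw signal in the files) with loess and Aquantile or with quantile normalisation, scaling to the 75th percentile, the authors' values, single dyes or orientations, other detection filters, no dye filter and, chosen after seeing the data, 1 probe per gene. There was 1 RNA sample per group, so no p-value was computed. The number of arrays limits the precision.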

Additional observations from a re-analysis of the deposited data

Results flagged for a closer look

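For 2 of the 18 probes, both dyes showed the sponge moving T one way and IP the other way. The ELAVL1 probe A_32_P200165 was higher in sponge T by 0.13 (Cy3) and 0.03 (Cy5) and lower in sponge IP by −0.24 and −0.28 on the log2 scale, so that its log2 IP/T was −0.34 ± 0.09 in sponge relative to EV cells. The KHSRP probe A_23_P16157 was higher in T by 0.11 and 0.14 and lower in IP by −0.17 and −0.21, with a difference in log2 IP/T of −0.31 ± 0.01. The difference between T and IP was not tested, as each group holds 1 RNA sample. Opposite movement of this kind was found for 3290 of all kept probes (14.6%). The other ELAVL1 and KHSRP probes did not show it.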

How the results depend on the processing

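Every alternative kept ZFP36 and ZFP36L1 (A_23_P99540) above 2-fold in both populations. The number of probes at an IP/T of 2 or more ranged from 3 to 5 in either population, and was 2 in sponge cells with 1 probe per gene. The share of all kept probes at 2 or more ranged from 7.58% to 18.7% in EV and from 6.92% to 20.2% in sponge cells. It was lowest with normexp. With Cy5 labels only, 1 probe, ZFP36L1 A_24_P99152, was at 0.5 or less in sponge cells. Normexp with loess and Aquantile put the median log2 IP/T of the probes at 0.39 in EV and 0.33 in sponge cells, normexp with quantile at 0.27 and 0.32, 75th percentile scaling at 0.36 and 0.46, and 1 probe per gene at 0.51 and 0.49. In sponge cells it was 0.49 on arrays with IP in Cy5, 0.46 with Cy3 and 0.53 with Cy5 labels only. Normexp with loess and Aquantile also put the median of all kept probes in EV cells at 0.0082 in place of −0.16, with 8.77% of probes at 2 or more in place of 17.5%. Under the 8 alternatives 22 to 27 of the AU-rich transcripts and 8 to 13 of the other binding proteins were at 2 or more in EV cells. Both counts were lowest with normexp and quantile, where 7.58% of all kept probes were at 2 or more. The median IP difference was −0.031 with normexp and quantile and −0.026 on arrays with IP in Cy3 and with Cy3 labels only. The median T difference changed sign with the dye (0.085 with Cy3, −0.083 with Cy5). The cause was not tested. Of the 90 values (5 for each of the 18 probes), 59 kept their sign under all 8 alternatives that change them. No paired analysis was possible because each group holds 1 RNA sample. Differences between sponge and EV cells below the dye spread cannot be read from these arrays. Larger ones cannot be told apart from differences between arrays, cultures or precipitations.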
